A study of Homo sapiens with 60 samples.

Results

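Serine synthesis and folate one-carbon metabolism were followed through 9 genes, PHGDH, PSAT1, PSPH, SHMT1, SHMT2, MTHFD1, MTHFD2, MTHFD1L and ALDH1L2, chosen by name for the steps they encode. The choice was made with earlier results of these data known. All 9 were found among the 60675 genes of the deposited table, and all 9 passed the filter on low counts that left 16644 genes for testing. The cells were HepG2, an established hepatocellular carcinoma line, sampled after 24 h. They had been given water extracts from Korean herbal medicine at doses of 500, 100 and 20 µg/mL, each dose in 3 libraries, and 3 vehicle libraries served as controls. The single herbs were Menthae Herba and Saposhnikoviae Radix, and the formulas were Guibi-tang, Saengmaek-san, Okbyeongpung-san and Soyo-san. Soshiho-tang had 1 library at each dose and entered no test. The label of the vehicle libraries gives 0.1% DMSO and the series text gives another percentage, so the amount of DMSO in the controls is uncertain. No DMSO percentage is recorded for the extract libraries, so a difference in solvent from vehicle cannot be told apart from an effect of extract. Since no label states that replicates were separate cultures, the spread that enters a p-value is that between these libraries and may be technical.

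De novo serine synthesis branches from glycolysis at 3-phosphoglycerate and runs through PHGDH, PSAT1 and PSPH. Serine hydroxymethyltransferases then pass the serine side-chain carbon to tetrahydrofolate and release glycine, SHMT2 in mitochondria and SHMT1 in the cytosol. In mitochondria MTHFD2, MTHFD1L and ALDH1L2 oxidise that carbon to formate or carbon dioxide, and in the cytosol the trifunctional enzyme MTHFD1 joins formate to folate for purine and thymidylate synthesis. Several of these genes are known targets of the transcription factor ATF4, which responds to amino acid shortage and other stresses. The liver is a main organ of folate and serine metabolism.

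Levels between genes were compared in vehicle as counts scaled to a common library total by TMM (CPM), per kilobase of the longest principal transcript. PSAT1 was the most abundant at 100.4 ± 0.917 CPM per kilobase (mean ± SD, n = 3, as for all values of this kind), followed by SHMT2 at 86.9 ± 4.72. MTHFD1 at 61.6 ± 2.28 and PHGDH at 56.5 ± 3.38 had overlapping libraries, so their order is not separated from their spread. PSPH followed at 29.1 ± 1.04, SHMT1 at 25.7 ± 1.40, MTHFD2 at 19.5 ± 1.00 and MTHFD1L at 14.2 ± 0.383. ALDH1L2 was by far the lowest at 0.384 ± 0.0241. Apart from MTHFD1 and PHGDH, no neighbours in this order had overlapping libraries in vehicle.

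The lowest library total was 20446542 expected counts, the median 25862355.5 and the highest 32386486, and a floor of 3 counts equals 0.147 CPM at the lowest total and 0.0926 CPM at the highest. This floor covers counting error only. The cells carried hepatocyte genes in every library, with ALB between 6749 and 8397 CPM and AFP between 2589 and 3346 CPM. Defining genes of other cell types were at or near 0, with COL1A2 and DCN at 0 in 58 of 60 libraries, PTPRC in 57 and CD3E in 59. The summed leukocyte list reached 925 to 974 CPM in vehicle and 972 to 2629 CPM with extract, and nearly all of it was LYZ. Libraries fell into 2 classes by the nuclear RNA MALAT1, 31 between 175 and 283 CPM and 29 between 387 and 552 CPM. Vehicle and both single herbs were all in the lower class, Soyo-san, Okbyeongpung-san and Soshiho-tang all in the higher, and Saengmaek-san and Guibi-tang held both at every dose. The split differed between doses of Guibi-tang, with 2 lower and 1 higher at 500 µg/mL and 1 lower and 2 higher at 20 µg/mL. Within groups that held both classes, 5 of the 9 genes differed between them (25.2% of all genes tested). PHGDH was lower in the higher class by a log2 difference of -0.13 ± 0.03 (SE), MTHFD1L by -0.11 ± 0.03, SHMT2 by -0.07 ± 0.03 and MTHFD1 by -0.06 ± 0.02, while ALDH1L2 was higher by 0.29 ± 0.09. Their adjusted p-values in edgeR's quasi-likelihood test were 0.000343, 0.00202, 0.042, 0.0378 and 0.0186. MTHFD2 differed by 0.02 ± 0.03 with an adjusted p of 0.73.

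Promoter windows from RefSeq (GRCh38.p14, 250 bases before to 50 after a start site) were found for 6 of the 9 genes, and PSPH, SHMT2 and ALDH1L2 had none. They were searched on both strands for TGATGNAA, the C/EBP-ATF response element to which ATF4 binds with a partner, and for the E-box CACGTG. Among 35114 windows of 300 bases, 3.62% held the former and 7.26% the latter. MTHFD2, MTHFD1L and MTHFD1 are printed because the results turn on them, with each match in capitals.
MTHFD1L chr6:150866236-150866535 (+): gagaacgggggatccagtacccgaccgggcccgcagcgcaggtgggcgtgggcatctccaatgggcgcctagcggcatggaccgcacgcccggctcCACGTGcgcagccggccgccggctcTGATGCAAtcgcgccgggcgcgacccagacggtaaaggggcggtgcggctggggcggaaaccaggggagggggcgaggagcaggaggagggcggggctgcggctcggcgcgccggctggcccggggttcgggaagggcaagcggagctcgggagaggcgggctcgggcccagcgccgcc
MTHFD1 chr14:64388103-64388402 (+): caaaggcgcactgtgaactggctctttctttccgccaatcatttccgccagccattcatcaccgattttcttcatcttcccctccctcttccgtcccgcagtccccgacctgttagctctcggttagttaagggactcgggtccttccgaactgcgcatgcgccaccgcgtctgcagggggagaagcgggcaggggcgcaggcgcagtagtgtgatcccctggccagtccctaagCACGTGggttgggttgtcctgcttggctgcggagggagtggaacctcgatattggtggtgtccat
MTHFD2 chr2:74198365-74198664 (+): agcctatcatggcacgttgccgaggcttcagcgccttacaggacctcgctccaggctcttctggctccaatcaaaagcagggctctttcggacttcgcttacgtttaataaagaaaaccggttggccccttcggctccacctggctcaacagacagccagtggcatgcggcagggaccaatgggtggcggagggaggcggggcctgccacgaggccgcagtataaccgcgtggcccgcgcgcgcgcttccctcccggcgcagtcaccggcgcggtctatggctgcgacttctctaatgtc

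In the MTHFD1L window TGATGCAA begins at -129 and CACGTG at -154 from the start site. MTHFD1L has 4 such windows, and 3 of them, which overlap, hold both motifs. The MTHFD1 window holds CACGTG at -15 and no TGATGNAA. Neither motif was found in the windows of MTHFD2, PHGDH, PSAT1 and SHMT1, which says only that these letters are not in these windows.

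PHGDH (ENSG00000092621, chr1:119648411-119744226, plus strand, GENCODE v29 on GRCh38) encodes phosphoglycerate dehydrogenase, the first committed step of serine synthesis. In vehicle it stood at 137, 155 and 147 CPM. With Guibi-tang it was 156, 137 and 147 CPM at 20 µg/mL and 129, 125 and 115 CPM at 500 µg/mL, and these 2 groups do not overlap. The fall from 20 to 500 µg/mL was -0.25 ± 0.05 on the log2 scale (SE; adjusted p = 0.000811, edgeR's quasi-likelihood test). With Menthae Herba it went from 169, 158 and 160 CPM at 20 µg/mL to 143, 146 and 141 CPM at 500 µg/mL. That fall was -0.18 ± 0.05 (adjusted p = 0.00698, edgeR) and lost its call without Menthae Herba 20 replicate 1, where it was -0.15 with an adjusted p of 0.055. The Menthae Herba libraries at 500 µg/mL lay within the range of vehicle, and Menthae Herba 20 had the highest mean of all 22 groups at 162 ± 6.00 CPM. The lowest mean was that of Guibi-tang 500 at 123 ± 7.26 CPM, and Soyo-san 500 came next at 129 ± 4.73 CPM. Over the 6 replicated extracts the log2 change of PHGDH from 20 to 500 µg/mL ran from -0.25 to -0.04, and 2 of the 6 passed the test. In a bulk library a lower level per cell and a smaller number of cells expressing the gene cannot be told apart.

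PSAT1 (ENSG00000135069, chr9:78297143-78330093, plus strand) encodes phosphoserine aminotransferase, the transamination step. Vehicle libraries held 221, 221 and 217 CPM. With Guibi-tang the libraries read 232, 233 and 224 CPM at 20 µg/mL and 215, 199 and 195 CPM at 500 µg/mL, with no overlap. The change of -0.18 ± 0.05 passed the test (adjusted p = 0.0312, edgeR). It no longer passed without Guibi-tang 20 replicate 1 (adjusted p = 0.0764), 20 replicate 2 (0.112), 500 replicate 2 (0.129) or 500 replicate 3 (0.154). Saposhnikoviae Radix had 245, 240 and 239 CPM at 20 µg/mL and 223, 193 and 216 CPM at 500 µg/mL, again without overlap, and its change did not pass (adjusted p = 0.124, edgeR). Menthae Herba 20 had 251, 242 and 195 CPM, so 1 of its 3 libraries lay below every vehicle library, and the change from 20 to 500 µg/mL was 0.02 with a 95% interval of -0.09 to 0.13.

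PSPH (ENSG00000146733, chr7:56011051-56051604, minus strand) encodes phosphoserine phosphatase, which releases serine. It moved least of the 9 genes. Group means ran from 58.1 CPM in the single Soshiho-tang 100 library to 67.0 ± 1.92 CPM in Soyo-san 100, around 63.5 ± 2.26 CPM in vehicle. No comparison of PSPH passed the test, at any dose of the 6 extracts, in edgeR's quasi-likelihood test. Its change from 20 to 500 µg/mL with Menthae Herba was -0.01 with a 95% interval of -0.12 to 0.09.

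**Figure D1:**
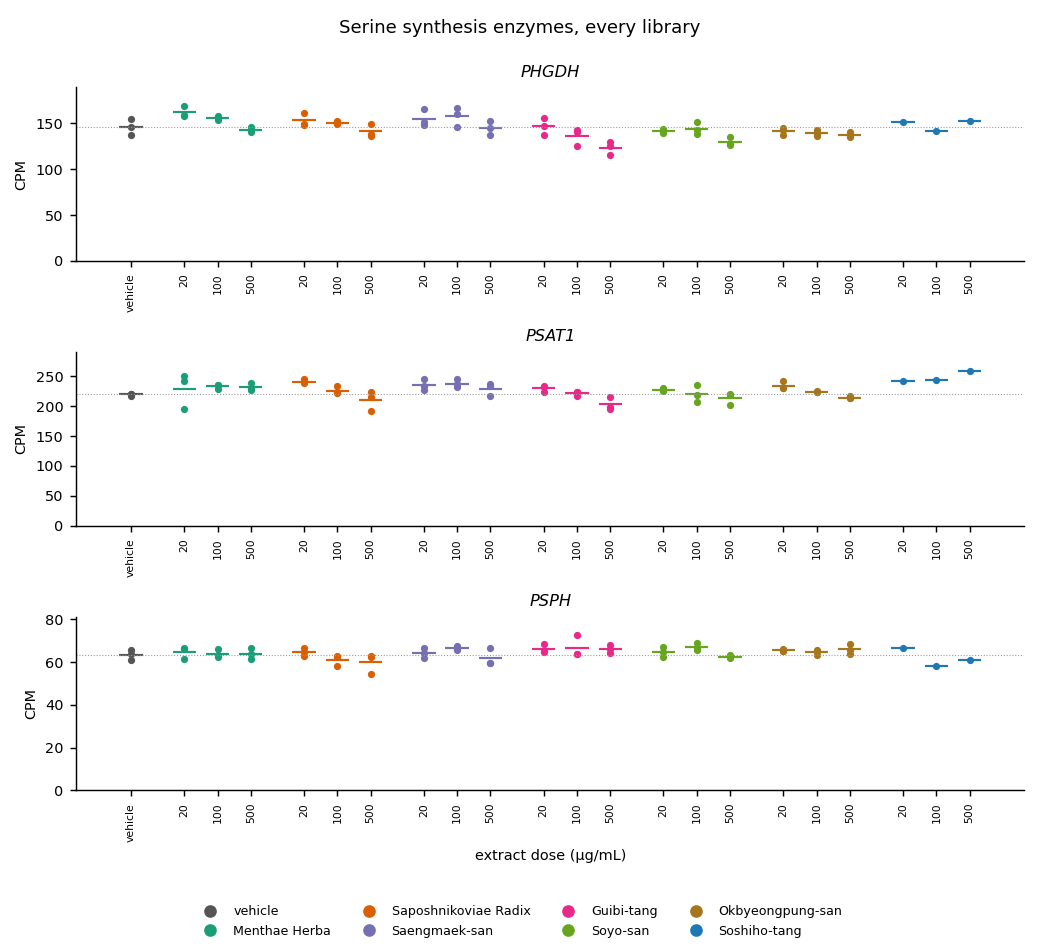
CPM of PHGDH, PSAT1 and PSPH in each library (points) by extract and dose in µg/mL, with group means as short lines (n = 3, or the single Soshiho-tang library) and the vehicle mean dotted. PHGDH with Guibi-tang reaches 115 CPM at 500 µg/mL, the lowest of the 60 libraries, while PSPH stays near its vehicle mean of 63.5 CPM.

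In the mitochondrial arm, 3 of the 4 genes rose from 20 to 500 µg/mL with Menthae Herba. MTHFD2 (ENSG00000065911, chr2:74198562-74217565, plus strand) encodes a dehydrogenase and cyclohydrolase that is low in most adult tissue and high in many tumours. It read 91.8, 86.0 and 83.0 CPM in vehicle, 99.1, 102 and 85.0 CPM at 20 µg/mL, 106, 109 and 108 CPM at 100 µg/mL and 128, 124 and 135 CPM at 500 µg/mL. The 500 µg/mL libraries lay above every one of the other 57 libraries, which ran from 81.5 to 121 CPM. The rise over 20 µg/mL was 0.44 ± 0.05 on the log2 scale, or 1.36-fold (adjusted p = 6.09e-10, edgeR). With Saposhnikoviae Radix the direction was opposite, from 99.6, 101 and 100.4 CPM at 20 µg/mL to 89.7, 81.5 and 87.2 CPM at 500 µg/mL. That fall of -0.21 ± 0.05 passed (adjusted p = 0.0371, edgeR) and did not pass when 500 replicate 2 (adjusted p = 0.438), 500 replicate 3 (0.113), 20 replicate 1 (0.126), 20 replicate 2 (0.166) or 20 replicate 3 (0.154) was left out, nor in a fit of those 2 groups alone (0.0822). Ordered by group mean, Menthae Herba 500 (129 ± 5.23 CPM) and the Soshiho-tang 500 library (121 CPM) came first. Vehicle (86.9 ± 4.47 CPM) and Saposhnikoviae Radix 500 (86.1 ± 4.19 CPM) came last, and their libraries overlapped.

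MTHFD1L (ENSG00000120254, chr6:150865549-151101887, plus strand) encodes the mitochondrial formyltetrahydrofolate synthetase, which releases formate. It stood at 49.5, 52.2 and 51.5 CPM in vehicle. With Menthae Herba it was 56.9, 56.5 and 53.1 CPM at 20 µg/mL, 60.3, 59.3 and 63.1 CPM at 100 µg/mL and 69.9, 67.9 and 70.6 CPM at 500 µg/mL. The 3 dose groups do not overlap each other and all lie above vehicle. From 20 to 500 µg/mL the gene rose by 0.32 ± 0.05 (adjusted p = 6.63e-07, edgeR). Over the 6 extracts the log2 change with dose ran from 0.00 with Okbyeongpung-san to 0.32 with Menthae Herba, the 1 of the 6 that passed. The group with the lowest mean of all 22 was vehicle at 51.1 ± 1.38 CPM.

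ALDH1L2 (ENSG00000136010, chr12:105019784-105084577, minus strand) encodes the mitochondrial formyltetrahydrofolate dehydrogenase, which makes NADPH while oxidising the carbon to carbon dioxide. Vehicle held 3.00, 2.69 and 3.01 CPM, and Menthae Herba 3.07, 3.04 and 3.03 CPM at 20 µg/mL. At 100 µg/mL the values were 3.42, 2.68 and 3.52 CPM, and at 500 µg/mL they were 5.96, 5.82 and 6.26 CPM. The 500 µg/mL libraries were thus apart from both lower doses, which overlapped. The rise over 20 µg/mL was 0.98 ± 0.15 on the log2 scale, or 1.98-fold (adjusted p = 7.02e-07, edgeR), the largest change among the 9 genes. C12orf45, with a median of 6.02 CPM, overlaps ALDH1L2 on the opposite strand, and whether counting used the strand is not given in the sources used here.

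SHMT2 (ENSG00000182199, chr12:57229327-57234935, plus strand) encodes the mitochondrial serine hydroxymethyltransferase that feeds this arm. It did not pass the test in any comparison with edgeR. In Menthae Herba it was 226, 221 and 220.4 CPM at 500 µg/mL and 236, 235 and 234 CPM at 20 µg/mL, which do not overlap, with a change of -0.08 and a 95% interval of -0.17 to 0.02. Over the 6 extracts its log2 change with dose lay between -0.11 and -0.04.

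**Figure D2:**
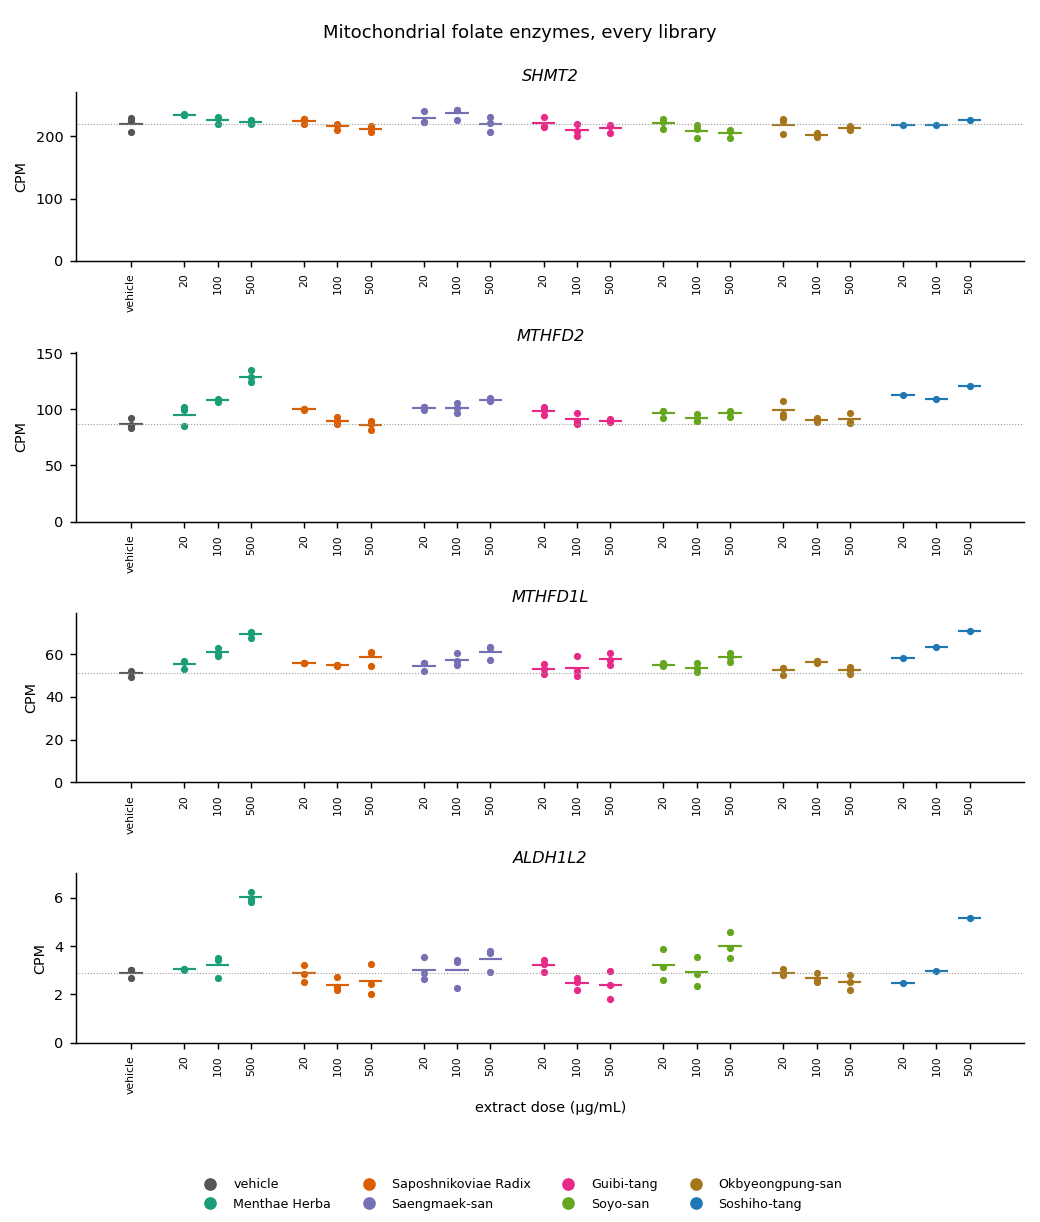
CPM of SHMT2, MTHFD2, MTHFD1L and ALDH1L2 in each library (points) by extract and dose in µg/mL, with group means as short lines (n = 3, or the single Soshiho-tang library) and the vehicle mean dotted. With Menthae Herba 500 MTHFD2 reaches 124 to 135 CPM and ALDH1L2 5.82 to 6.26 CPM, above all other libraries, while SHMT2 shows no such step.

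Both cytosolic genes fell from 20 to 500 µg/mL with Menthae Herba. MTHFD1 (ENSG00000100714, chr14:64388031-64463457, plus strand) read 193, 201 and 186 CPM in vehicle. With Menthae Herba the libraries held 189, 189 and 179 CPM at 20 µg/mL, 189, 194 and 198 CPM at 100 µg/mL and 151, 142 and 151 CPM at 500 µg/mL. The 3 libraries at 500 µg/mL were below each of the other 57, which ran from 169 to 205 CPM. The fall was -0.32 ± 0.04 on the log2 scale, or 20.2% (adjusted p = 1.22e-08, edgeR). Soyo-san 500 had the second lowest mean at 174 ± 4.33 CPM, against 187 ± 7.45 CPM at 20 µg/mL, and that change did not pass (adjusted p = 0.120, edgeR).

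SHMT1 (ENSG00000176974, chr17:18327860-18363563, minus strand) encodes the cytosolic serine hydroxymethyltransferase. Vehicle libraries held 59.4, 66.1 and 64.3 CPM. Menthae Herba gave 66.5, 64.6 and 69.5 CPM at 20 µg/mL, 66.1, 67.9 and 66.5 CPM at 100 µg/mL and 56.2, 53.8 and 56.9 CPM at 500 µg/mL. As for MTHFD1, the step lay between 100 and 500 µg/mL, and the 500 µg/mL libraries were below the other 57, whose lowest was 59.4 CPM. The fall from 20 to 500 µg/mL was -0.26 ± 0.04 (adjusted p = 4.04e-06, edgeR). SMCR8, with a median of 89.2 CPM, overlaps SHMT1 on the opposite strand.

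**Figure D3:**
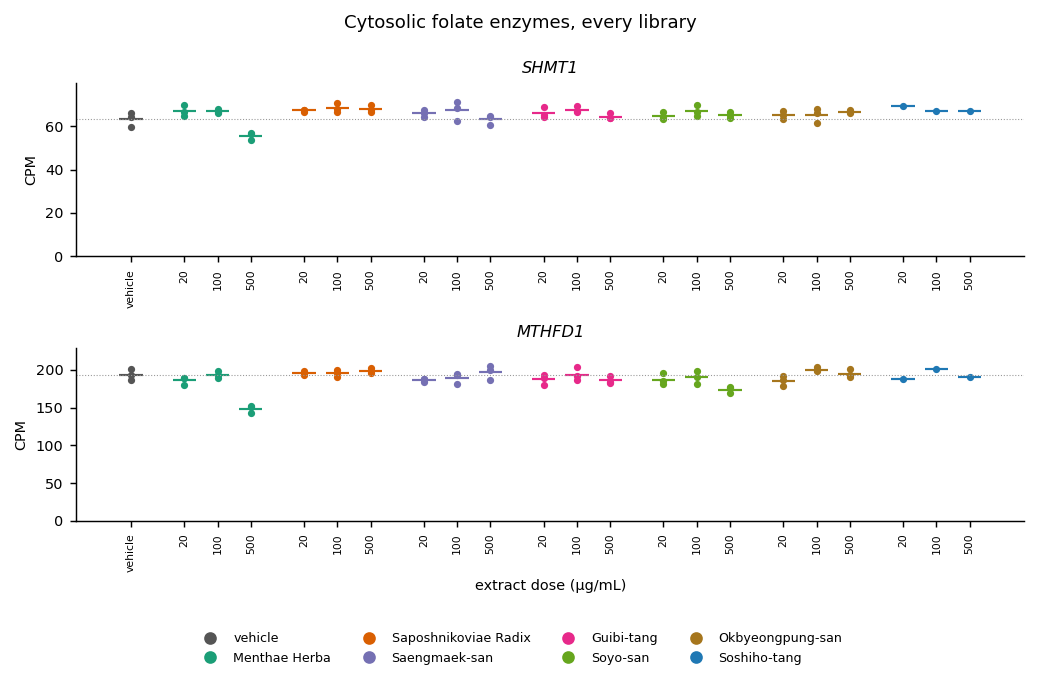
CPM of SHMT1 and MTHFD1 in each library (points) by extract and dose in µg/mL, with group means as short lines (n = 3, or the single Soshiho-tang library) and the vehicle mean dotted. Menthae Herba 500 is lower than every other group, at 142 to 151 CPM for MTHFD1 and 53.8 to 56.9 CPM for SHMT1.

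Counted over the 9 genes, Menthae Herba changed 6 between 20 and 500 µg/mL, 3 up (MTHFD2, MTHFD1L, ALDH1L2) and 3 down (PHGDH, SHMT1, MTHFD1). Of all genes tested, 32.1% passed in that comparison, 16.3% higher and 15.8% lower. Saposhnikoviae Radix changed 1 of 9 (MTHFD2, down) where 0.397% of all genes passed and 0.186% were lower, and Guibi-tang changed 2 (PHGDH and PSAT1, down) where 8.12% passed and 3.2% were lower. The count was 0 of 9 for Saengmaek-san (1.96% of all genes), Soyo-san (7.58%) and Okbyeongpung-san (0.024%) in edgeR's quasi-likelihood test. At an unadjusted p under 0.05 those 3 extracts had 1, 3 and 2 of the 9 genes, and DESeq2 called 1, 0 and 0. Without Saposhnikoviae Radix 500 replicate 1 the count for that herb was 2, and without Saengmaek-san 500 replicate 3 the count for that formula was 1. Libraries at 500 and 20 µg/mL did not overlap for 7 of the 9 genes with Menthae Herba, where 43.7% of all genes did not overlap. This held for 4 genes with Saposhnikoviae Radix (12.9% of all genes), 2 with Saengmaek-san (15.4%), 3 with Guibi-tang (22%), 5 with Soyo-san (26.4%) and 2 with Okbyeongpung-san (11%). The median log2 change of the 9 genes was near 0 with Menthae Herba (-0.01) and over all genes (-0.01). It was -0.11 with Saposhnikoviae Radix and -0.05 with Guibi-tang, beside 0.00 over all genes in both. With Soyo-san it was -0.06 and with Saengmaek-san -0.04, beside -0.01 over all genes in both, and with Okbyeongpung-san -0.04 beside 0.00.

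**Figure D4:**
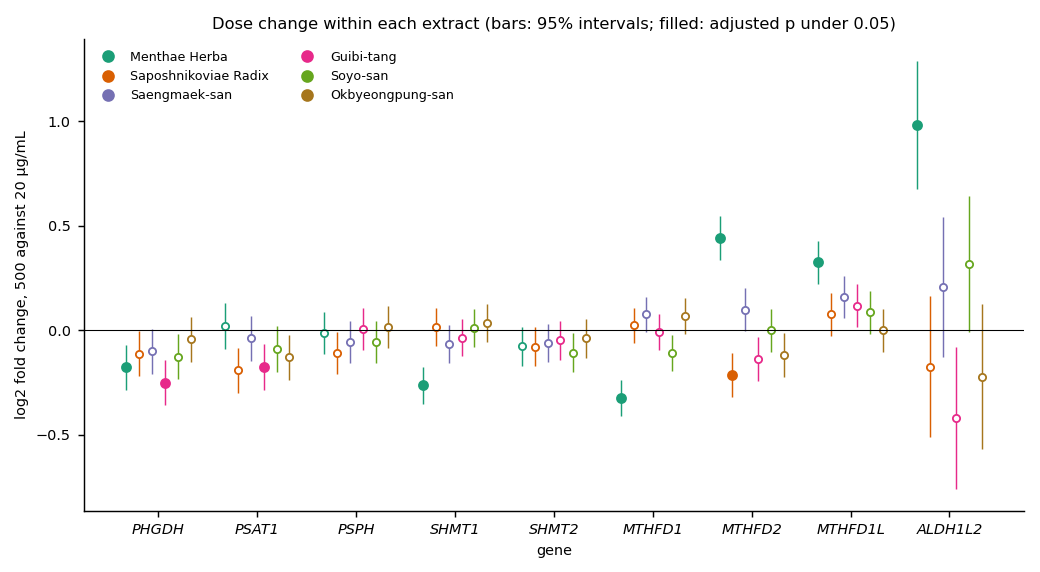
Log2 fold change from 20 to 500 µg/mL for each of the 9 genes in the 6 replicated extracts, with 95% intervals per gene that are not adjusted for the number of tests. Filled points have an adjusted p under 0.05, and Menthae Herba spans the widest range, from -0.32 for MTHFD1 to 0.98 for ALDH1L2.

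Whether the dose changes differ between extracts was tested within a code set, the first number of the sample codes, which Menthae Herba and Saposhnikoviae Radix share. The dose change of Menthae Herba minus that of Saposhnikoviae Radix passed for 6 of the 9 genes, beside 20% of all genes. MTHFD2 differed most clearly, by 0.66 ± 0.07 on the log2 scale (adjusted p = 5.81e-10, edgeR), since it rose with one herb and fell with the other. ALDH1L2 differed by 1.16 ± 0.23 (adjusted p = 0.00011) and MTHFD1L by 0.25 ± 0.07 (0.00824). MTHFD1 differed by -0.35 ± 0.06 (adjusted p = 1.22e-05, edgeR) and SHMT1 by -0.28 ± 0.06 (0.000693). PSAT1 differed by 0.21 ± 0.08 (adjusted p = 0.0433, edgeR), a call lost in 9 of 19 alternatives. Leaving out Menthae Herba 20 replicate 3, its library of 195 CPM, gave 0.11 with an adjusted p of 0.309. The call was also lost without Menthae Herba 500 replicate 1 or 2, Saposhnikoviae Radix 500 replicate 2 or any 1 of the 3 Saposhnikoviae Radix 20 libraries, with differences of 0.15 to 0.22 and adjusted p-values of 0.0505 to 0.195 (edgeR). For PHGDH the difference was -0.07 with a 95% interval of -0.22 to 0.08, and its change with Saposhnikoviae Radix alone (-0.11) did not pass (adjusted p = 0.687, edgeR). Guibi-tang minus Saengmaek-san and Soyo-san minus Okbyeongpung-san gave 0 of 9 each in edgeR's quasi-likelihood test, beside 1.15% and 2.36% of all genes. At an unadjusted p under 0.05 each had 2 genes, and DESeq2 called 0 and 1.

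Against vehicle, the mitochondrial genes MTHFD2 and MTHFD1L were the ones most often higher. MTHFD2 was higher in 9 of 18 comparisons and MTHFD1L in 8 of 18, with none lower, and PSAT1, PSPH and SHMT2 passed in 0 of 18 in edgeR's quasi-likelihood test. The vehicle libraries carry a code set of their own, so a difference between sets and an effect of extract cannot be told apart in these comparisons, and all 18 share the same 3 vehicle libraries. In total 19 of 162 tests were higher and 5 lower, and 12 of the 24 calls were kept under every alternative. Over the 18 comparisons, the share of all genes that passed in either direction ran from 3.37% (Saengmaek-san 20) to 39.8% (Menthae Herba 500). With Menthae Herba 500, 5 genes passed (39.8% of all genes): MTHFD2 at 0.57 ± 0.05, MTHFD1L at 0.44 ± 0.05, ALDH1L2 at 1.05 ± 0.16, MTHFD1 at -0.38 ± 0.04 and SHMT1 at -0.18 ± 0.05 on the log2 scale. Their adjusted p-values (edgeR) were 2.21e-13, 2.6e-10, 1.5e-07, 1.17e-10 and 0.000773. With Menthae Herba 100, MTHFD2 (0.31 ± 0.05) and MTHFD1L (0.26 ± 0.05) passed (14% of all genes), and with Saengmaek-san 500 the same pair passed at 0.32 ± 0.05 and 0.26 ± 0.05 (12.6%). MTHFD2 with Saposhnikoviae Radix 20 (0.20 ± 0.05; 7.19% of all genes), PHGDH with Guibi-tang 500 (-0.25 ± 0.05; 13.4%) and MTHFD1L with Soyo-san 500 (0.20 ± 0.05; 21.5%) complete the calls that every alternative kept.

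The other 12 calls against vehicle each depended on single libraries. With Soyo-san 500, PHGDH (-0.17), MTHFD1 (-0.15), MTHFD2 (0.15) and ALDH1L2 (0.46) passed, but the count of 5 genes became 1 with the MALAT1 class as a covariate. Vehicle lies wholly in the lower class and Soyo-san 500 in the higher, so class and extract cannot be told apart between them. The class difference in that fit comes from Saengmaek-san and Guibi-tang, which held both classes. In that fit ALDH1L2 was 0.17 (adjusted p = 0.559, edgeR) and PHGDH -0.05 (0.571). Without vehicle replicate 2 the count for Soyo-san 500 was also 1, without Soyo-san 500 replicate 1 it was 2, and without vehicle replicate 3 or Soyo-san 500 replicate 3 it was 3. ALDH1L2 kept its call only without Soyo-san 500 replicate 2, and with any other of these 6 libraries left out its adjusted p was 0.0582 to 0.194. MTHFD2 lost its call without vehicle replicate 2 or 3 or Soyo-san 500 replicate 1 or 2 (adjusted p of 0.0974 to 0.153). PHGDH lost it without vehicle replicate 2 or Soyo-san 500 replicate 1 or 3 (0.0509 to 0.121), and MTHFD1 without vehicle replicate 2 (0.0569). MTHFD1L with Saposhnikoviae Radix 500 (0.20; 5.8% of all genes) lost its call without vehicle replicate 1 (adjusted p = 0.0713) or Saposhnikoviae Radix 500 replicate 3 (0.0921). With Guibi-tang 500 the gene (0.18) lost it without vehicle replicate 1 (adjusted p = 0.0761) or Guibi-tang 500 replicate 1 (0.103). Saengmaek-san 100 had MTHFD2 (0.21) and MTHFD1L (0.17) called (6.05% of all genes). MTHFD2 was lost there without Saengmaek-san 100 replicate 1 (adjusted p = 0.0569), and MTHFD1L without any 1 of the vehicle libraries (0.0503 to 0.179) or Saengmaek-san 100 replicate 1 (0.186) or 2 (0.0892). MTHFD2 with Saengmaek-san 20 (0.22; 3.37%) was lost without vehicle replicate 3 (adjusted p = 0.0658). MTHFD2 with Guibi-tang 20 (0.18; 4.38%) was lost without vehicle replicate 2 (0.103) or 3 (0.146) or Guibi-tang 20 replicate 2 (0.149) or 3 (0.11). MTHFD2 with Okbyeongpung-san 20 (0.19; 6.99%) was lost without vehicle replicate 2 (adjusted p = 0.0731) or 3 (0.123) or Okbyeongpung-san 20 replicate 3 (0.24). MTHFD1L with Okbyeongpung-san 100 (0.15; 12.9%) was lost when any 1 of the 6 libraries was left out (adjusted p of 0.0713 to 0.204).

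For 6 of the 18 comparisons with vehicle no gene of the 9 passed in edgeR's quasi-likelihood test. They were Menthae Herba 20 (6.83% of all genes), Saposhnikoviae Radix 100 (5.47%), Guibi-tang 100 (7.96%), Soyo-san 100 (8.31%), Soyo-san 20 (3.88%) and Okbyeongpung-san 500 (9.11%). At an unadjusted p under 0.05 they had 3, 2, 1, 0, 2 and 0 of the 9 genes in that order. DESeq2 called 1 in Menthae Herba 20 and 0 in the other 5. The count for Menthae Herba 20 was 1 without vehicle replicate 2 and 2 without Menthae Herba 20 replicate 3.

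The opposite moves of the mitochondrial and the cytosolic dehydrogenase were set side by side as the ratio of MTHFD2 to MTHFD1 CPM in each library, a measure chosen after these values were seen and given with no test. It was 0.475, 0.429 and 0.446 in vehicle. With Menthae Herba it was 0.524, 0.537 and 0.474 at 20 µg/mL, 0.562, 0.563 and 0.547 at 100 µg/mL and 0.848, 0.874 and 0.891 at 500 µg/mL. In the 57 libraries outside Menthae Herba 500 it ran from 0.412 to 0.635 with a median of 0.503. The highest of those 57 was the Soshiho-tang 500 library.

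**Figure D5:**
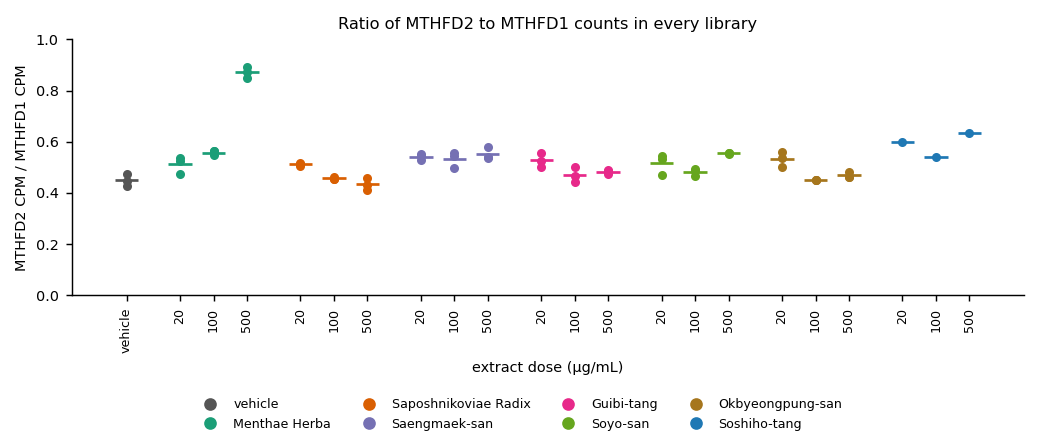
Ratio of MTHFD2 to MTHFD1 CPM in each library (points) by extract and dose in µg/mL, with group means as short lines. The 3 Menthae Herba 500 libraries lie at 0.848 to 0.891, above the other 57, which end at 0.635.

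Soshiho-tang, with 1 library per dose and so no replicate check, had the highest MTHFD1L and PSAT1 values of the 60 libraries, both at 500 µg/mL. MTHFD1L read 58.2 CPM at 20 µg/mL, 63.6 at 100 µg/mL and 71.0 at 500 µg/mL, and the last had an exact Poisson 95% interval of 67.8 to 74.3 that covers counting error only. ALDH1L2 read 2.47, 2.97 and 5.17 CPM in the same order, and its interval at 500 µg/mL was 4.34 to 6.11, beside 2.90 CPM as the vehicle mean. MTHFD2 read 112, 109 and 121 CPM, all above the highest vehicle library of 91.8 CPM. SHMT2, at 219, 218 and 226 CPM, lay within the range of the vehicle libraries, 207 to 230 CPM. PSAT1 read 242, 245 and 259 CPM, MTHFD1 188, 201 and 190 CPM and SHMT1 69.2, 67.0 and 66.8 CPM. Soshiho-tang lies in the higher MALAT1 class and in a code set of its own, and the part of either in these levels was not tested.

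Genes around the pathway were followed in 7 lists of 46 genes, of which 44 passed the filter. SDS and CHAC1 did not, with at most 0.0719 and 0.173 CPM in any library. From 20 to 500 µg/mL, 24 of the 44 passed with Menthae Herba, 10 higher and 14 lower, beside 16.3% and 15.8% of all genes. With Guibi-tang 7 passed, 2 higher and 5 lower (8.12% of all genes), with Saposhnikoviae Radix 2 (0.397%), with Soyo-san 2 (7.58%) and with Okbyeongpung-san 1 (0.024%). With Saengmaek-san 0 passed in edgeR's quasi-likelihood test (1.96%). The list of ATF4 and its targets had 3 of 5 higher and none lower with Menthae Herba, with a median log2 change of 0.30 beside -0.01 over all genes. In that comparison 16.3% of all genes were higher. ASNS, asparagine synthetase, rose from 30.9 ± 1.80 to 52.9 ± 1.74 CPM (0.78 ± 0.06 on the log2 scale), SESN2 by 0.51 ± 0.07 and ATF4 itself by 0.23 ± 0.06. ASNS went the other way with Saposhnikoviae Radix (-0.39 ± 0.07), Guibi-tang (-0.34 ± 0.07) and Okbyeongpung-san (-0.41 ± 0.07), and each of these falls passed. DDIT3 rose with Guibi-tang (0.39 ± 0.13). Against vehicle, all 5 were higher with Menthae Herba 500, by 0.18 to 0.75 (39.8% of all genes passed). With Menthae Herba 20, 1 of the 5 was lower and none higher, with a lowest change of -0.29 (6.83%). The other replicated extracts also had genes of this list lower than vehicle. Among them were SESN2 with Guibi-tang 100 (-0.63 ± 0.08) and ATF4 with Okbyeongpung-san 100 (-0.27 ± 0.06), while DDIT3 was higher with Guibi-tang 500 (0.43 ± 0.13).

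The methionine cycle list had 1 of 8 higher and 5 lower with Menthae Herba, where 15.8% of all genes were lower, with a median of -0.38 beside -0.01 over all genes. BHMT, which remethylates homocysteine with betaine, fell by 1.22 ± 0.17 on the log2 scale, and GNMT, the glycine methyltransferase that uses up methyl groups, by 0.87 ± 0.16. Both are low, BHMT at 3.93 ± 0.807 CPM in vehicle and 1.45 ± 0.292 CPM at 500 µg/mL. Against vehicle the log2 change of BHMT at 500 µg/mL was -1.43 ± 0.17. MTRR (-0.46 ± 0.05) and MAT1A (-0.38 ± 0.06) fell too, and MAT1A rose with Saposhnikoviae Radix (0.33 ± 0.06) and Guibi-tang (0.20 ± 0.06). Of the other folate enzymes, 3 of 8 fell with Menthae Herba and none rose, with a median of -0.10. Among them were FTCD, of histidine breakdown (-0.43 ± 0.07), and TYMS, thymidylate synthase (-0.35 ± 0.05). In glycine cleavage 3 of 4 fell, with a median of -0.15 and GLDC, the decarboxylase, at -0.33 ± 0.04. GLDC also fell with Guibi-tang (-0.14 ± 0.04).

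Among 9 genes of serine and folate transport and polyglutamylation, 4 rose and 2 fell with Menthae Herba, where 16.3% of all genes were higher and 15.8% lower, and the median was 0.03. The 2 that fell were FPGS, which adds glutamates to folate (-0.25 ± 0.07), and SLC19A1, the reduced folate carrier (-0.23 ± 0.07), named after their values were seen. SLC1A5 (0.35 ± 0.08) and SLC1A4 (0.34 ± 0.06) carry neutral amino acids, serine included, across the plasma membrane, and SFXN3 (0.31 ± 0.05) belongs to the sideroflexins of the mitochondrial inner membrane. SFXN3 rose with Soyo-san as well (0.23 ± 0.05). In transsulfuration and serine breakdown 1 of 4 rose, CTH, the lyase that makes cysteine (0.40 ± 0.10). In purine synthesis, which consumes 10-formyl folate, GART rose (0.11 ± 0.04) and PAICS fell (-0.18 ± 0.04), and the other 4 of 6 did not pass.

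Genes whose levels followed those of the pathway most closely were ranked by Pearson's r over the 22 group means of log2 CPM, among 9317 genes with a mean of at least 10 CPM. These are descriptions, since the groups share code sets and MALAT1 classes. Nearest to MTHFD2 were ASNS (r = 0.888), MARS1 (0.885), the cytosolic methionyl-tRNA synthetase, and SLC7A11 (0.885), the cystine transporter. Nearest to PHGDH were SLC37A4 (0.868), PCK2 (0.862), the mitochondrial phosphoenolpyruvate carboxykinase, and HDAC6 (0.847). PSAT1 was followed by SLC31A1 (0.846), a copper transporter, STX16 (0.758) and YARS1 (0.743). For SHMT2 they were SH2B1 (0.750), EPS8L2 (0.742) and SLC6A9 (0.731), a glycine transporter. The highest values of r were those of MTHFD1, with MCM4 (0.960), RCC1 (0.958) and MCM7 (0.957). SHMT1 had NXT1 (0.915), HADH (0.914) and OIP5 (0.913) nearest to it. MTHFD1L was followed by PELO (0.921), TBC1D8 (0.902) and ABCC2 (0.899986). ALDH1L2 was followed by SLC7A11 (0.910), DUSP6 (0.880) and KIAA0319L (0.873), and PSPH by ZFAND6 (0.886), SEM1 (0.854) and RPL21 (0.784).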

How the data were processed

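The values deposited by the authors are expected counts for each Ensembl gene, obtained with FastQC 0.11.9, Trim Galore 0.6.5, STAR 2.7.3a and RSEM 1.3.3 on GRCh38, per the submitters' processing notes. Neither the annotation release nor the strand setting is given in the sources used here. Values were rounded to whole counts, and symbols came from a table of gene names. R 4.3.3 with edgeR 4.0.16 was used. Genes were kept by filterByExpr with a minimum count of 10, scaled by TMM and fitted by edgeR's quasi-likelihood model over 57 replicated libraries in 19 groups. Adjusted p-values are Benjamini-Hochberg values across all 16644 tested genes, with a call made under 0.05. As standard error serves the absolute log2 fold change over the square root of F. CPM use TMM factors of all 60 libraries.

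Comparisons were 500 against 20 µg/mL in 6 extracts, each of 3 doses against vehicle, and 3 differences of dose changes within a code set. Alternatives were RLE scaling, no filter, DESeq2 1.42.0, only the groups compared, replicate blocks, the MALAT1 class (split at 300 CPM) as a covariate, and each library left out. Transcript lengths and positions are from GENCODE v29. The 9 genes, the 7 pathway lists, the marker lists and the class covariate were chosen with earlier results of these data known. All 9 genes are named. From each other list the called genes of largest absolute log2 fold change are named, up to 4 per list. The 3 genes most like a gene are named for each of the 9. Not every gene that this rule names is reported here. The analysis was tested on simulated data.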

Additional observations from a re-analysis of the deposited data

Results flagged for a closer look

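For 6 genes the change from 20 to 500 µg/mL differed between Menthae Herba and Saposhnikoviae Radix in a test of the difference itself (edgeR's quasi-likelihood test). On the log2 scale, the dose change with Menthae Herba minus that with Saposhnikoviae Radix was 0.66 for MTHFD2, 1.16 for ALDH1L2, 0.25 for MTHFD1L and 0.21 for PSAT1. It was -0.35 for MTHFD1 and -0.28 for SHMT1. The PSAT1 call was lost in 9 of 19 alternatives. The largest drop came without the Menthae Herba 20 library of 195 CPM, where the value was 0.11 (adjusted p = 0.309, edgeR).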

How the results depend on the processing

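None of the 39 called gene values reversed its direction under any alternative, and the direction of values that did not pass was not compared across alternatives. With RLE scaling and with a plain replicate block, all 27 counts of called genes stayed within 1.5 times. Libraries were not treated as paired by number, since no comparison had all 3 same-number correlations over 0.1, and the replicate block kept all 39 called gene values. Shared structure by number is not excluded. For 500 against 20, the correlation was 0.131 for replicate 1 and 0.158 for replicate 3 with Guibi-tang, and 0.195 for replicate 3 with Saengmaek-san. With both formulas, every replicate 1 library was in the lower MALAT1 class and every replicate 3 library in the higher. Counts of called genes out of 9 moved as follows. In a fit of only the groups compared, Saposhnikoviae Radix went from 1 to 0 for 500 against 20 and 500 against vehicle and from 1 to 2 for 20 against vehicle, Saengmaek-san from 2 to 0 at 100 and 1 to 0 at 20, Guibi-tang from 2 to 1 at 500 and 1 to 0 at 20, and Okbyeongpung-san from 1 to 0 at 100 and at 20. With a replicate block within the code set, Saengmaek-san 500 against 20 went from 0 to 1, Menthae Herba 20 against vehicle from 0 to 1 and Okbyeongpung-san 100 from 1 to 2. DESeq2 moved these 3 to the same 1, 1 and 2, and the difference of Soyo-san and Okbyeongpung-san from 0 to 1. With the MALAT1 class as a covariate, Saengmaek-san 500 against 20 went from 0 to 1, and against vehicle Menthae Herba 20 went from 0 to 1, Saposhnikoviae Radix 20 from 1 to 2, Saengmaek-san 100 from 2 to 4, Guibi-tang 20 and Okbyeongpung-san 20 from 1 to 0, Soyo-san 500 from 5 to 1, and Soyo-san 100 and 20 from 0 to 1. With no filter on low counts, Saengmaek-san 100 went from 2 to 1, Guibi-tang 500 from 2 to 1, Guibi-tang 20 from 1 to 0, Soyo-san 500 from 5 to 3, and Okbyeongpung-san 100 and 20 from 1 to 0. The cause of these moves was not tested.

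With each library left out in turn, counts for 500 against 20 ran from 5 to 6 for Menthae Herba, 0 to 2 for Saposhnikoviae Radix, 0 to 1 for Saengmaek-san and 1 to 2 for Guibi-tang, and were 0 for Soyo-san and Okbyeongpung-san. Against vehicle they were 5 for Menthae Herba 500, 2 at 100 and 0 to 2 at 20, and for Saposhnikoviae Radix 0 to 1 at 500, 0 at 100 and 1 at 20. They were 2, 0 to 2 and 0 to 1 for Saengmaek-san, 1 to 2, 0 and 0 to 1 for Guibi-tang, 1 to 5, 0 and 0 for Soyo-san, and 0, 0 to 1 and 0 to 1 for Okbyeongpung-san at 500, 100 and 20. The difference of Menthae Herba and Saposhnikoviae Radix ran from 5 to 6 and the other 2 differences were 0. Depth limits ALDH1L2 most, at 2.90 CPM in vehicle.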
